A study of Mus musculus with 4 samples.

Results

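The comparison described here set the RNA of axons against the RNA of cell bodies in cultures of mouse dorsal root ganglion (DRG) neurons whose axons had been electrically stimulated. It used 2 of the 4 nylon membrane arrays of the series, namely the array of stimulated axons and the array of stimulated cell bodies, which were chosen by their labels, and it covered all 6284 genes named on the membranes. The neurons came from NIH Swiss embryos at day 13.5 and had been plated in Campenot chambers, where axons grow beneath a divider and reach a separate compartment. All 4 arrays share the strain, the age and the culture. Division of non-neuronal cells had been inhibited, and serum was withdrawn overnight before the experiment. Stimulation through platinum electrodes lasted 2 h, and the other pair of arrays holds axons and cell bodies that were not stimulated. Each array was hybridized with 1 pooled sample, so there are no replicates and no p-value, and precision is limited by having so few arrays. The sample records give 3 coverslips per pool and 3 weeks in culture, and the methods describe the pooling and the RNA amount differently.

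A sensory axon lies far from its nucleus, and part of its protein is made locally from messenger RNA (mRNA) that is carried along microtubules. Transcripts of ribosomal proteins, mitochondrial proteins, cytoskeletal proteins and chaperones are among those known from axons, whereas transcripts of nuclear proteins are mostly expected to be used in the cell body. DRG neurons have no dendrites. The cells were plated in the side compartments of the chamber, and axons were collected from the central one, into which they had grown.

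The intensities of a membrane were put on a common scale by taking the z-score of the log10 intensity over all 9600 spots of that array. The z ratio of a spot is its z-score in axons minus its z-score in cell bodies, in units of the SD that this difference has across the membrane, so that a negative z ratio means a weaker relative signal in axons. A gene's value is the mean over the spots that name it, and a gene passed when that mean reached 1.4 in either direction, the cut-off in the study's methods. Of the 6284 genes, 4796 rest on 1 spot. Because the sample of each compartment was amplified and each array was put on its own z-score scale, the z ratios describe the composition of the RNA in a compartment. They do not describe how much RNA it held. In such bulk samples fewer cells of a type and less of a transcript per cell cannot be told apart.

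The arrays of stimulated axons and stimulated cell bodies had median intensities of 102.5 and 118.1, and their log10 intensities had SDs of 0.69 and 0.839. The unstimulated axons and cell bodies had medians of 89.3 and 159.7. Over all spots the intensities of the stimulated pair had a correlation of 0.927, while the 2 axon arrays had one of 0.965 and the 2 cell body arrays one of 0.967, across spots that are not independent replicates. On the cell body array 359 spots held the exact value 10, which recurs as a fill-in for missing signal would, against 63 on the axon array. Unnamed places of the membrane reached a 95th percentile of 42.5 on the stimulated axon array and 10 on the stimulated cell body array. The RNA is from mouse but clones carry human symbols, and 5637 of the 6284 symbols, or 89.7%, are also the symbol of a gene in the mouse RefSeq annotation (GRCm38.p6).

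More genes stood lower in stimulated axons than higher. At the cut-off, 301 of 6284 genes (4.79%) were lower and 166 (2.64%) were higher in axons than in cell bodies. Genes higher in axons were therefore 35.5% of all genes past the cut-off, but this share depended on the scale. It was 60.7% with log2 ratios centred on each array's median, 82.2% with robust z-scores, 63.6% with the z-score difference left undivided, 48.5% with each spot centred on spots of nearby rows, 24.9% with spots above the array mean only and 22.1% after loess, which removes a trend of the difference with brightness.

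Many of these calls came from spots with almost no signal. Of the 166 genes that were higher in axons, 105 had a spot at 10 or below in cell bodies, and among the 629 dimmest genes 111 were higher and 40 lower. The single genes described next are therefore taken from the 2580 genes whose spots were all above 10 on both stimulated arrays and above the unnamed places on the axon array, with a mean z-score above 0. These are called measurable genes, and the counts over 6284 genes and the gene lists further below, which include dimmer genes, are marked as such. Of them 130 (5.04%) were lower and 25 (0.969%) were higher in stimulated axons. In raw intensity, 362 of the 2580 genes were at least 2-fold brighter in cell bodies, 72 of them at least 4-fold, and 6 genes were at least 2-fold brighter in axons. The arrays were not scaled to each other for these counts. The 2580 genes had a median intensity of 605.9 in stimulated axons and 966.1 in stimulated cell bodies, so part of the imbalance lies in the whole arrays.

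The 130 genes that were lower in axons had a median intensity of 185.2 in stimulated axons and 795.7 in stimulated cell bodies. Their signal was 4.08-fold brighter in cell bodies at the median, within a range of 2.8 to 10.9-fold. These are genes of moderate signal in cell bodies that were dim in axons. Among the 130, 128 were also past the cut-off after loess and all 130 were at least 2-fold lower on the median-centred log2 scale. Centred on spots 25 and 50 places away, 74 of them were still past it.

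**Figure D1:**
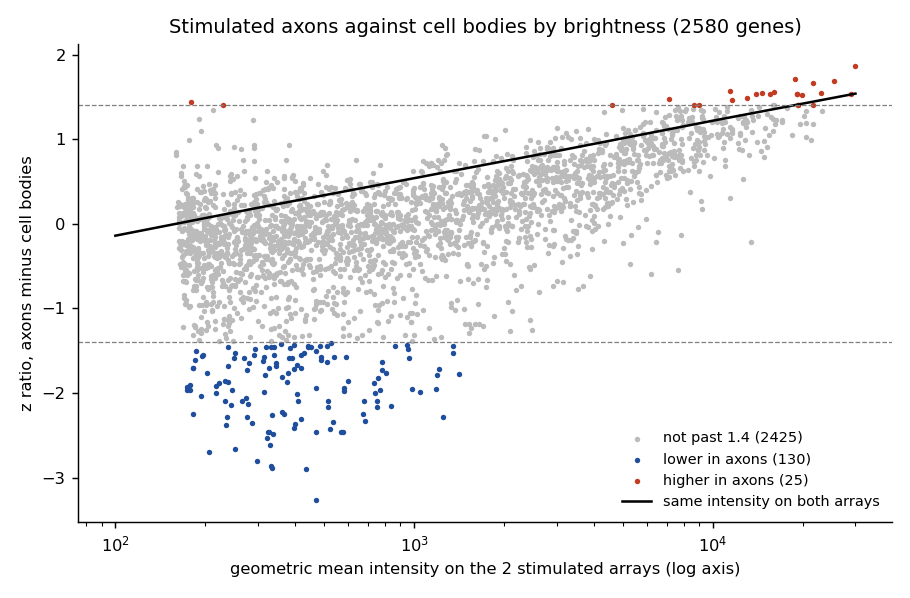
z ratio of stimulated axons against stimulated cell bodies for 2580 measurable genes (vertical axis) against the geometric mean intensity on both arrays (horizontal log axis); each point is a gene, dashed lines mark 1.4 in size, and the black line is the z ratio of a spot with the same intensity on both arrays. The 130 lower genes lie at moderate brightness, and 23 of the 25 higher genes lie above 3000 on both arrays, close to the black line.

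The lowest gene in stimulated axons was C4A, which encodes the complement component C4. Its spot read 142.1 in stimulated axons and 1547 in stimulated cell bodies, against 427.6 in unstimulated axons and 1267 in unstimulated cell bodies. Both axon arrays were dimmer than both cell body arrays, and the stimulated axons were the dimmest. The z ratio was −3.27 with stimulation and −0.85 without. PRKAG1, a regulatory subunit of the AMP-activated protein kinase that senses cellular energy, read 149.6 and 1258 in stimulated axons and cell bodies and 255.6 and 1144 in unstimulated ones, with z ratios of −2.90 and −1.52. Here the compartments did not overlap, and the contrast was past the cut-off on both pairs of arrays.

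RSRC2, a protein with a region rich in arginine and serine, was the lowest of all measurable genes by the smaller in size of its 2 z ratios, with and without stimulation. Its axon signal was 119 with and 142.6 without stimulation, and its cell body signal was 945.5 with and 1016 without. Its z ratio was −2.89 with stimulation and −2.27 without. The zinc finger gene ZNF678 read 119.3 and 922.9 in stimulated axons and cell bodies and 248.6 and 933.5 in unstimulated ones, so that both cell body arrays had nearly the same level and the axon arrays differed from each other. Its z ratios were −2.86 and −1.25, and its symbol is not a symbol of the mouse annotation.

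TRPV6, a calcium channel best known from epithelia, read 110.3 and 808.9 in stimulated axons and cell bodies and 303 and 753.3 in unstimulated ones, with z ratios of −2.81 and −0.61. Its spot is next to a spot of the ribosomal protein gene RPL19, which read 279.8 and 2111 on the stimulated arrays and 782.8 and 1960 on the unstimulated arrays, with a stimulated z ratio of −2.57. The signal of TRPV6 and that of its brighter neighbour ran in the same order over the 4 arrays. Over 8832 pairs of spots 1 place apart, brightness had a correlation of −0.043 and the z ratio one of 0.027. Whether the neighbour adds to the signal of TRPV6 was not tested. TRPV6 was the only one of the 12 lowest genes with a spot 1 or 25 places away that was itself at −1.4 or lower.

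ATP6V0B, a subunit of the membrane sector of the proton pump that acidifies vesicles, was the only one of the 12 lowest genes with more than 1 spot. Its 2 spots had z ratios of −2.76 and −2.46. Their mean intensity was 128.4 in stimulated axons, 840.8 in stimulated cell bodies, 166.3 in unstimulated axons and 805.1 in unstimulated cell bodies. The compartments were well apart on both pairs of arrays, with a mean z ratio of −1.81 without stimulation. The 2 spots differed there, at −1.32 and −2.29 in the same order. In axons the first read 124.4 with and 234.6 without stimulation, and the second 132.3 and 98.0. After centring on nearby rows the mean of the 2 spots was −1.81 with and −0.44 without stimulation.

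SYNGR2, a synaptogyrin of vesicle membranes, read 136.6 and 825.7 in stimulated axons and cell bodies and 162.9 and 772.6 in unstimulated ones, with z ratios of −2.48 and −1.64. Its relative SYNGR1, a protein of synaptic vesicles, read 348.4 and 2023 with stimulation and 695 and 1852 without, and was at −2.15 and −0.65. Both synaptogyrins were thus dimmer in axons on both pairs of arrays. The other genes among the 12 lowest were C12orf57 at −2.70, PI3, an elastase inhibitor in humans, at −2.66, TP53I3, a quinone oxidoreductase, at −2.53, MRM2, a methyltransferase of mitochondrial ribosomal RNA, at −2.46, and HCFC2, a host cell factor, at −2.46. Like ZNF678, C12orf57 and TP53I3 are not symbols of the mouse annotation, where PI3 is only a synonym. All 12 were below 0 in the unstimulated contrast too, and 6 were at −1.4 or lower there.

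**Figure D2:**
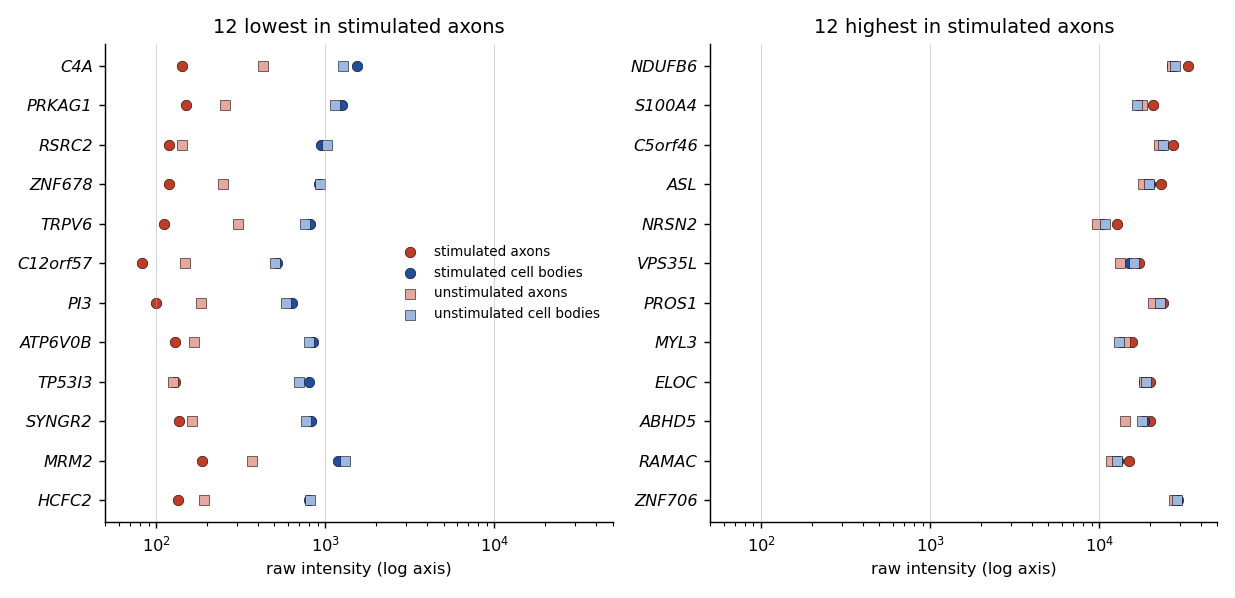
Raw intensity (log axis) of the 12 lowest and 12 highest measurable genes on each of the 4 arrays, 1 point per array, ordered by the z ratio of the stimulated pair. On the left the axon points lie well below the cell body points, as for C4A with 142.1 against 1547, and on the right the 4 points of a gene nearly coincide, as for ZNF706 with 29016 against 28795.

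The 25 genes that were higher in stimulated axons were of another kind. Their median intensity was 17154 in axons and 14977 in cell bodies, and 23 of the 25 were above 3000 on both arrays. The signal in axons was 1.15-fold that in cell bodies at the median, with a range of 0.977 to 2.55, and 23 of the 25 were under 1.5-fold. The log10 intensities of the cell body array have the larger SD, so that a spot of 10000 on both arrays has a z ratio of 1.22 and a spot of 30000 on both one of 1.54, whereas a spot of 100 on both has −0.14. With log2 ratios 2 of the 25 were past the cut-off of 1 used there, and after loess also 2 were past 1.4, although 23 remained above 0. The 629 brightest genes had a median z ratio of 0.75 and held 23 genes at 1.4 or higher and 0 at −1.4 or lower.

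The highest was NDUFB6, a subunit of complex I of the respiratory chain. It read 33480 in stimulated axons, 26880 in stimulated cell bodies, 27088 in unstimulated axons and 27856 in unstimulated cell bodies. Stimulated axons were the brightest and the other arrays were alike. The z ratio was 1.87 with and 1.12 without stimulation, and 0.35 and −0.02 after loess. S100A4, a calcium-binding protein, read 20789 and 16952 in stimulated axons and cell bodies and 17852 and 16671 in unstimulated ones, with z ratios of 1.71 and 1.23, and of 0.43 and 0.29 after loess. Both of its axon arrays were brighter than both of its cell body arrays.

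C5orf46 was at 1.69, ASL, the argininosuccinate lyase of arginine synthesis, at 1.67, NRSN2, a neurensin of vesicles, at 1.57, VPS35L, a part of an endosomal recycling complex, at 1.56, MYL3, a myosin light chain of heart and slow muscle, at 1.55 and PROS1, the anticoagulant protein S, at 1.55. After loess these genes lay between 0.13 and 0.54. The symbol C5orf46 is not a symbol of the mouse annotation. ZNF706 was at 1.54 with nearly equal intensities of 29016 and 28795, and at −0.02 after loess. All 12 highest genes were above 0 in the unstimulated contrast, and 0 of them reached 1.4 there. A spot of 10000 on both unstimulated arrays already has a z ratio of 1.07, so the sign of such bright genes is largely set by the scale.

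Genes with a clearly brighter spot in axons were few and of moderate signal. Chosen after their values were seen, the measurable genes at 1.4 or higher after loess were 10, with 243.1 to 409.5 in stimulated axons and 112.1 to 202.7 in stimulated cell bodies, a ratio of 1.68 to 2.55. KCTD20 read 286 and 112.1 in stimulated axons and cell bodies and 394.6 and 166.5 in unstimulated ones, and was at 1.44 and 2.10 before loess. Both axon arrays lay above both cell body arrays. ABRAXAS1, a part of a DNA repair complex with BRCA1, read 323 and 139.5 with and 355.9 and 194.4 without stimulation, at 1.35 and 1.70. HSCB, a cochaperone of iron-sulphur cluster assembly, was at 1.24 and 1.84, and the non-coding RNA LINC00260, whose symbol is not one of the mouse annotation, at 1.23 and 1.68.

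ECPAS, an adaptor of the proteasome, was the exception among them. It read 353.3 and 149.1 in stimulated axons and cell bodies but 264 and 341.6 in unstimulated ones, so that axons were brighter only in the stimulated pair, with z ratios of 1.4 and 0.37. The remaining genes of this kind were PRXL2A at 1.10, KLHL29 at 0.99, DDOST, a subunit of the oligosaccharyltransferase, at 0.93, MTRFR, a factor of mitochondrial translation, at 0.91 and FAM209B at 0.90, on the z ratio before loess. Of the 10, 8 were also at 1.4 or higher after loess in the unstimulated contrast.

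The unstimulated axons and cell bodies, which share no array with the stimulated pair, had z ratios of the same sign in most of the genes past the cut-off. In that contrast, over all genes, 210 of 6284 genes (3.34%) were higher and 181 (2.88%) were lower in axons. Of the 301 genes lower in stimulated axons, 285 (94.7%) were below 0 without stimulation, where 54.1% of all genes were, and 52 were at −1.4 or lower. These 52 are 17.3% of the 301 and 28.7% of the 181. Of the 166 genes higher in stimulated axons, 138 (83.1%) were above 0 without stimulation, where 45.9% of all genes were, and 61 were at 1.4 or higher, which are 36.7% of the 166 and 29.0% of the 210.

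Among measurable genes, 129 of the 130 lower genes were below 0 on the other pair of arrays, where 43.2% of all 2580 were. All 25 higher genes were above 0 there, beside 56.8% of all 2580. A spot equally bright on both unstimulated arrays has a z ratio of 0.97 at 3000 and 1.17 at 30000. The sign of such bright genes was thus largely set by the scale. The size was smaller on the unstimulated pair. The 130 had a median of −1.86 with and −0.93 without stimulation. Without it 22 of them were at −1.4 or lower, beside 1.16% of all 2580. The 25 had medians of 1.53 with and 0.99 without stimulation. The genes were chosen by their stimulated values, and a smaller size on arrays not used for the choice is partly built into that choice. Of the 362 genes at least 2-fold brighter in stimulated cell bodies, 311 were so in the unstimulated pair, where 582 were in all. These too are raw ratios, and the 2580 genes had a median intensity of 522.0 in unstimulated axons and 975.2 in unstimulated cell bodies. Across the 2580 genes the z ratios of the 2 contrasts had a correlation of 0.774, or 0.703 after loess, and across all 6284 genes one of 0.519, or 0.456 after loess, across genes that are not independent replicates and share their spots, their brightness and their place on the membrane.

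**Figure D3:**
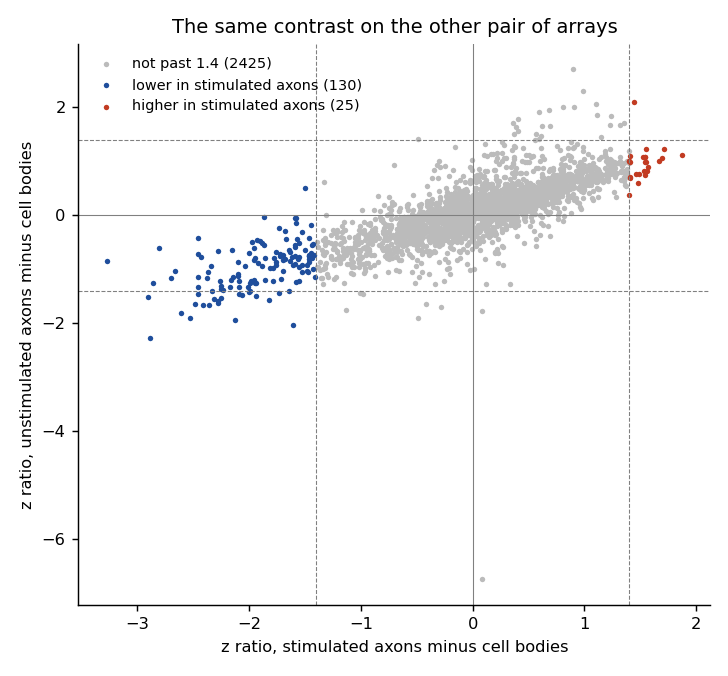
z ratio of axons against cell bodies without stimulation (vertical axis) against that with stimulation (horizontal axis) for 2580 measurable genes, 1 point per gene; dashed lines mark 1.4 in size. Of the 130 genes lower in stimulated axons 129 lie below 0 on the vertical axis, and all 25 higher genes lie above it. A spot of 10000 on both unstimulated arrays would itself lie at 1.07 on the vertical axis.

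The genes lowest on both pairs of arrays were RSRC2, TP53I3 at −2.53 and −1.91, ATP6V0B, IL17RB, a receptor of interleukin 17, at −2.13 and −1.94, GDE1, a glycerophosphodiesterase, at −2.41 and −1.66, SMIM19 at −2.36 and −1.66, SYNGR2 and ZWINT, a kinetochore protein, at −2.28 and −1.63. GDE1 read 162.8 and 967 in stimulated and 210.3 and 1025 in unstimulated axons and cell bodies, and ZWINT 122.2 and 621.9, and 127.1 and 588.7. In these genes the 2 axon arrays were close to each other and far below the 2 cell body arrays. The genes highest on both were KCTD20, ABRAXAS1, STRADB at 1.32 and 1.67, HSCB, LINC00260, S100A4, DPYD, an enzyme of pyrimidine breakdown, at 1.23 and 1.22, and MYL3.

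Spots of the same gene were a weak check on each other. Over 3640 pairs of spots that name the same gene, brightness had a correlation of 0.107 and the z ratio one of 0.083, and the SD of a spot's z ratio within a gene was 0.845. The 141 pairs with the same clone accession had correlations of 0.284 and 0.147. Spots 25 places apart in the file, which mostly name different genes, had correlations of 0.358 in brightness and 0.237 in z ratio, and spots 50 places apart 0.358 and 0.223. Whether each row of the deposited values belongs to the clone that the annotation gives it could not be checked from these files, so every gene name and gene list here holds only as far as that match does. Of the measurable genes past the cut-off, 123 of the 130 lower and all 25 higher ones rest on 1 spot. The spots 25 places before and after the 130 lower genes had a median z ratio of −0.34, those around the 25 higher genes 0.43 and those around all measurable genes −0.02.

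Of 628 measurable genes with 2 or more spots, 274 had all spots on the same side of 0, and 7 of these were lower and 0 higher at the cut-off. Beside ATP6V0B they included SPARC, a secreted matrix protein also made by glia, at −1.81 with spots at −2.44 and −1.17. SPARC read 183.7 in stimulated axons and 714.3 in stimulated cell bodies, and 230.5 and 724.9 without stimulation. GAL3ST1, the sulphotransferase of the myelin lipid sulphatide, was at −1.70, HSD17B14, a steroid dehydrogenase, at −1.68, FGGY, a sugar kinase, at −1.59, PWP2, a protein of ribosome assembly, at −1.46 and CD7, a protein of T cells, at −1.44. PPIB, a chaperone of the endoplasmic reticulum, was at −1.38 and did not reach the cut-off. At the other end ALDOA, a glycolytic enzyme with 6 spots, had a mean of 1.0 with spots from 0.63 to 1.51 and read 6248 in axons and 5969 in cell bodies.

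Groups of genes with a shared function were described by the median of their members beside the median of all 6284 genes, which was −0.04 with and −0.06 without stimulation. Of all genes 3315 were below 0 with stimulation and 47.2% above it. At the cut-off 4.79% of all genes were lower and 2.64% higher, and the count of each list below is to be read beside these shares. The list medians include dim genes, so for the main lists that of the measurable members is given too, beside 0.05 with and 0.08 without stimulation for all 2580 measurable genes. Transcripts known from sensory axons, a list of 60 genes drawn up from general knowledge of which 45 were measured, had the lowest median with stimulation among the 33 lists with 10 or more genes. It was −0.37 with stimulation and −0.32 without, where 4 of these lists lay lower, and 31 of the 45 genes were below 0 with stimulation. The 18 measurable members had medians of −0.22 and 0.06, and other lists were lower than that with stimulation. At the cut-off 4 of the 45 were lower and 1 higher in stimulated axons, beside 4.79% and 2.64% of all genes.

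Among its measurable members PARK7, which protects cells from oxidative stress, read 509.8 and 2762 in stimulated axons and cell bodies and 884.4 and 2629 in unstimulated ones, with z ratios of −1.95 and −0.79. Axons were dimmer than cell bodies in both pairs. The amyloid precursor-like gene APLP2 was at −1.12 and −0.90, the actin gene ACTG1 at −1.08 and −0.96 and HMGB1, a chromatin protein also known from growing axons, at −0.58 and −0.38, none of which passed. TMSB4X, an actin-monomer binder, at −2.29 and the 14-3-3 gene YWHAZ at −2.0 passed on spots that were too dim to be measurable. So did KPNB1, the importin that carries cargo along axons and into nuclei, at −3.64, and RHOA, a GTPase of the cytoskeleton, at 1.43, both with spots under 10.

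Both lists of ribosomal proteins had medians below that of all genes under every alternative run. The 61 cytosolic ribosomal protein genes had a median of −0.21 with and −0.24 without stimulation, and 41 were below 0. The 23 measurable ones had medians of −0.07 and 0.04. Of the 61, 4 (6.56%, beside 4.79% of all genes) were at −1.4 or lower and 0 at 1.4 or higher. They were RPL34 at −1.69, RPL39L at −1.59, RPL7A at −1.45 and RPS12 at −1.43, of which only RPS12 was measurable, at 224.3 in stimulated axons and 697.1 in stimulated cell bodies. The bright RPL13A read 6848 and 8043 and was at 0.79. The 55 mitochondrial ribosomal protein genes had a median of −0.18, or −0.09 over 24 measurable ones, with 3 lower (5.45%), among them MRPS7 at −1.57, and 0 higher.

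The 44 genes taken by symbol as translation initiation and elongation factors had medians of −0.26 and −0.36, and 32 were below 0, but centred on nearby rows the list lay above the median of all genes. The 23 measurable members had medians of −0.16 and −0.08. EEF1A2, the elongation factor of mature neurons and muscle, read 85.1 and 389.8 in stimulated axons and cell bodies and 103.8 and 401 in unstimulated ones, with z ratios of −2.25 and −1.37. EIF4G1, the scaffold of the cap-binding complex, read 338.1 and 1594 with and 700.8 and 1707 without stimulation, at −1.88 and −0.51. Both were dimmer in axons in both pairs, EIF4G1 mostly in the stimulated one. EIF5 at −1.88 and EIF3K at −1.4 also passed, but neither was measurable. EIF4EBP2, which is a repressor of the cap-binding protein and not a factor, was the 1 member that was higher, at 1.83 and 2.23, with 116.2 and 28.2 in stimulated axons and cell bodies. It was not measurable either. The 14 aminoacyl-tRNA synthetases had a median of −0.01, or 0.82 over 6 measurable ones, with 0 past the cut-off.

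Of the cytoskeleton, the 31 genes of tubulins, microtubule-binding proteins and neurofilaments had medians of −0.22 and −0.38, or −0.27 and −0.16 over 15 measurable ones, with 2 lower (6.45%, beside 4.79% of all genes) and 0 higher. DPYSL5, a collapsin response mediator of growth cones, read 158.8 and 822.3 in stimulated axons and cell bodies and 201.3 and 810.7 in unstimulated ones, at −2.23 and −1.38. The alpha-tubulin TUBA4A read 313.7 and 1790 with and 488.3 and 1845 without stimulation, at −2.16 and −1.21. In both genes the axon arrays lay well below the cell body arrays. The gamma-tubulin TUBG1, of the microtubule-organizing centre, was at −1.09, and the tubulin-folding cofactor TBCC at 0.83. The 35 actin and actin-binding genes had a median of −0.08 with 2 lower (5.71%) and 0 higher, and the 40 kinesins, dyneins and myosins one of 0.03 with 1 lower (2.5%), MYL10 at −1.53, and 1 higher (2.5%), MYL3.

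The 27 SNAREs and synaptic vesicle proteins had medians of −0.09 and −0.30, or −0.05 and 0.13 over 12 measurable ones, with SYNGR1 and SYNGR2 lower (7.41%, beside 4.79% of all genes) and 0 higher. The SNAREs STX8 at −1.23 and VAMP8 at −1.21 did not pass. The 12 ion channels and transporters of excitability had a median of −0.22 with 1 lower, TRPV6. Of the 14 vacuolar ATPase genes ATP6V0B was lower, and ATP6V1E2 and ATP6V0E2 were higher on cell body spots below 10. ER to Golgi coats and ARF GTPases (25 genes) had a median of 0.10, with 0 past the cut-off.

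**Figure D4:**
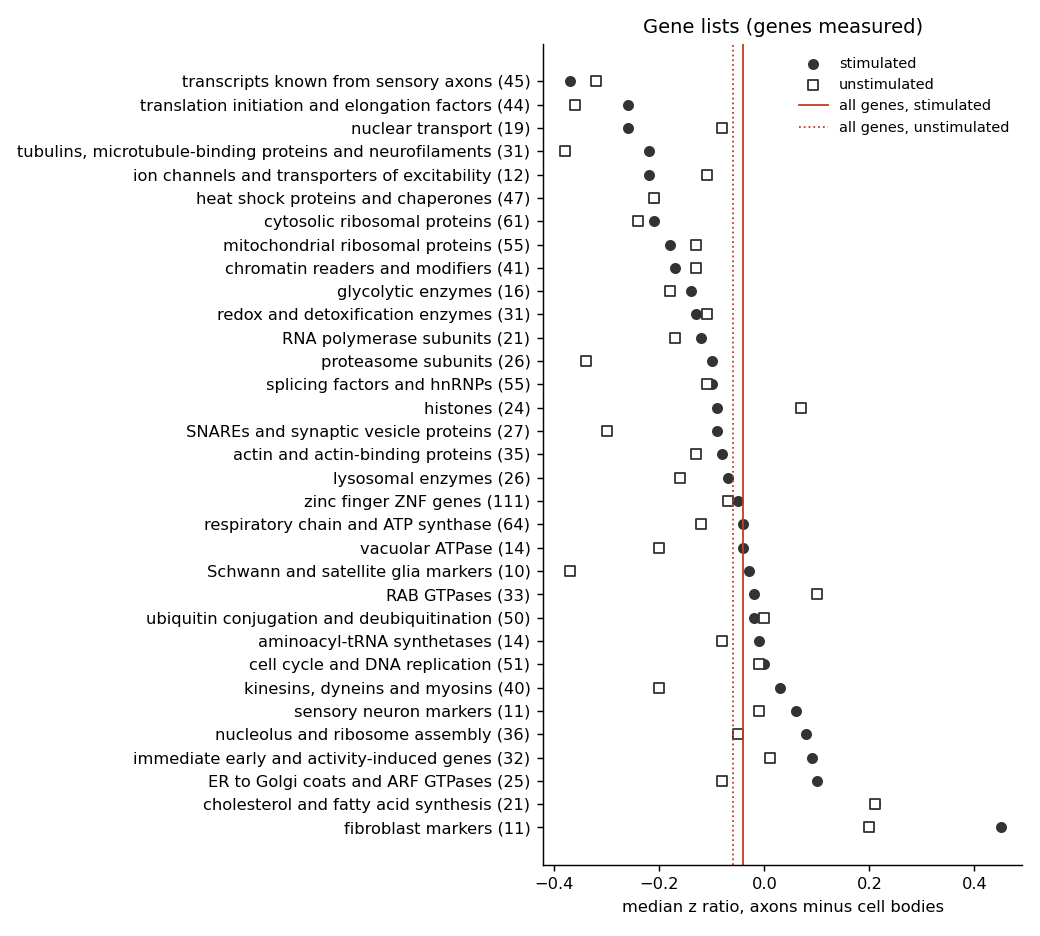
Median z ratio of axons against cell bodies for each gene list with 10 or more genes measured (number in brackets), with stimulation (filled circles) and without (open squares); the red lines are the medians of all 6284 genes, −0.04 and −0.06. All measured members are included, dim ones too. Transcripts known from sensory axons lie lowest with stimulation at −0.37, and fibroblast markers highest at 0.45. Bright genes have higher z ratios on this scale, where a spot of 10000 on both stimulated arrays has 1.22.

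The 47 heat shock proteins and chaperones had a median of −0.21 in both contrasts, with 4 lower (8.51%, beside 4.79% of all genes) and 0 higher, and lay above the median of all genes on the log2 scale. Their 15 measurable members had medians of 0.04 and 0.03, with 1 lower. HSPA2, a heat shock protein of the HSP70 family, read 175.5 and 989.2 in stimulated axons and cell bodies and 219.3 and 995.7 in unstimulated ones, with z ratios of −2.31 and −1.55, so that it passed in both pairs. CCT7 at −2.47, PDIA5 at −1.95 and HSPA4 at −4.92 passed on dim spots. The 26 proteasome subunits had medians of −0.10 and −0.34 with PSMD12 lower, at −2.04, and 5 of them were measurable, with medians of −0.37 and −0.46. For the respiratory chain with ATP synthase the median of 64 genes was −0.04, the same as over all genes, and 0.24 over 22 measurable ones, with 2 lower and 2 higher, one of them NDUFB6. The 16 glycolytic enzymes had a median of −0.14 with 0 higher and 2 lower (12.5%), PGAM2 at −1.55 and GPI on a dim spot.

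Genes that work in the nucleus were described by several lists. The 55 splicing factors and hnRNPs had a median of −0.10, or −0.24 over 22 measurable ones, with 2 lower (3.64%, beside 4.79% of all genes), SRSF6 at −1.70 and PRPF8 at −1.59, and 0 higher. The 24 histone genes had medians of −0.09 and 0.07, the 41 chromatin readers and modifiers −0.17 and −0.13, with −0.27 for 16 measurable ones with stimulation, the 111 zinc finger ZNF genes −0.05 and −0.07 and the 21 RNA polymerase subunits −0.12 and −0.17. At the cut-off 9 ZNF genes (8.11%) were lower and 6 (5.41%) higher, beside 4.79% and 2.64% of all genes. POLR1C, a subunit shared by RNA polymerases I and III, read 275.8 and 1639 in stimulated axons and cell bodies and 371.7 and 1707 in unstimulated ones, at −2.25 and −1.53. It was dimmer in axons on both pairs. The 36 genes of the nucleolus and ribosome assembly had a median of 0.08 with 2 higher, DDX21 and RRP12, neither of which was measurable. The 32 immediate early and activity-induced genes had medians of 0.09 and 0.01, with 1 lower, ARC at −1.50 on a dim spot.

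The 21 genes of cholesterol and fatty acid synthesis had a median of 0.21 in both contrasts, and 14 of them were above 0, although the median was below 0 when centred on nearby rows. Their 12 measurable members had medians of 0.13 and −0.05. MSMO1, a sterol oxidase of cholesterol synthesis, was the 1 member past the cut-off, at 3.0 and 2.42, with a cell body spot below 10. The measurable PMVK, a kinase of the mevalonate pathway, had 2 spots and was at 1.01, while FASN, the fatty acid synthase, was at −0.71. The 26 lysosomal enzymes had a median of −0.07, the 31 redox and detoxification enzymes −0.13, the 33 RAB GTPases −0.02, the 50 genes of ubiquitin conjugation and removal −0.02, the 51 genes of the cell cycle and DNA replication 0.0 and the 19 genes of nuclear transport −0.26. In each of these lists at most 2 genes were lower and at most 2 higher at the cut-off.

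Of 28 markers of sensory neurons 11 were measured, and 0 were past the cut-off. UCHL1, a deubiquitinating enzyme abundant in neurons, read 2392 and 3275 in stimulated axons and cell bodies, THY1 4531 and 7242 and RUNX3, a transcription factor of sensory neurons, 1094 and 1185. The growth-associated GAP43 read 125.7 and 121.2, the neuronal tubulin TUBB3 70 and 152.6 and STMN2 56.8 and 42.9. These intensities were close to the medians of their arrays or below them, apart from the cell body spot mean of TUBB3. The 11 had a median z ratio of 0.06 with stimulation, with 6 above 0 and 5 below, the lowest being TUBB3 at −1.19. Their summed intensity was 9637 in axons and 13965 in cell bodies with stimulation, and 8911 and 13809 without. These sums are of raw intensities. Over all genes they were 5489783 and 6642645 with stimulation, and 4858954 and 6635945 without. THY1 is also one of the fibroblast markers below, and counts in the sums of both lists.

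Non-neuronal markers gave signal in both compartments. Of 18 markers of Schwann and satellite glia 10 were measured, with summed intensities of 3814 in stimulated axons and 4879 in stimulated cell bodies. Their median z ratio was −0.03 with stimulation, with 5 above 0 and 5 below. At the cut-off 2 were lower, SPARC at −1.81 and the dim GFAP at −1.62. SOX10 read 967.1 and 1006 and was at −0.06, and the highest was CNP at 1.12, which was not measurable. Of 19 fibroblast markers 11 were measured, with 49107 and 48146. Their median z ratio was 0.45 with and 0.20 without stimulation, and 2 were higher, the bright S100A4 and PDGFRA, whose cell body spot was at 10. FN1, fibronectin, read 10815 and 11113 and was at 1.21, and ACTA2, smooth muscle actin, read 6437 and 5262 and was at 1.36. A spot of 10000 on both stimulated arrays has a z ratio of 1.22, so the values of bright markers partly follow the scale. After loess ACTA2 was at 0.67, S100A4 at 0.43, FN1 at 0.13 and THY1 at −0.51. The dim DCN was lower, at −1.70 with and −1.25 without stimulation. In all 8 fibroblast markers were above 0 with stimulation and 3 below it, namely DCN, LUM at −0.57 and COL5A1 at −0.30. On the median-centred log2 scale the median of the fibroblast markers was on the other side of 0. Of 13 macrophage markers 7 were measured, with 18476 and 17383, and 1 was higher, the bright complement gene C1QB at 1.53. Their median was 0.2 with stimulation, with 4 above 0 and 3 below, the lowest being TYROBP at −0.77. The part of such cells in the compartment differences was not tested.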

How the data were processed

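RNA from each compartment was amplified by the authors, labelled with 33P and hybridized to nylon membranes of cDNA clones, which a phosphor imager read. The deposited values are raw intensities of 9600 spots per array, without normalization between arrays, in 2 tables with the same values. The sources used here do not give the treatment of background. Genes were named from the platform's annotation, which names 1 gene for 8496 spots, several for 21 and none for 1083.

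From these intensities z ratios were computed as described above. With 1 array per group no test was run. The members and the gene lists were chosen with earlier results of these data known. Lists by symbol prefix also take a few genes outside the complex they are named for. Named are the 12 highest and 12 lowest measurable genes, the 8 at either end with several spots of one sign, the 8 at either end in both contrasts, up to 4 measurable members per list, and markers. Members of a list past the cut-off, and the genes higher after loess, were named after their values were seen. The alternatives were other scales (undivided, log2, robust, SD over genes), quantile and loess normalization (span 0.3), normexp (offset 50), filters on dim or unnamed spots, thresholds of 1.3 and 2, medians over spots and centring by membrane position. The cut-off for log2 ratios was 1. Centring on nearby rows and a floor at the unnamed places were added after seeing the data. The tools were R 4.3.3 with limma 3.58.1, and Python 3.11.15 with pandas 2.3.3 and numpy 2.4.6, and the computations were tested on simulated data.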

Additional observations from a re-analysis of the deposited data

Results flagged for a closer look

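In 2 genes of the lists the compartment difference ran the opposite way with and without stimulation, each past the cut-off. KPNB1 was at −3.64 with and 3.54 without stimulation. Its intensities were 2.36 in stimulated axons, 13.8 in stimulated cell bodies, 21.8 in unstimulated axons and 3.04 in unstimulated cell bodies, so that 2 of the 4 lay below the fill-in value of 10. RHOA was at 1.43 with and −2.92 without stimulation, as the mean of 2 spots that were at −1.63 and 4.49 with stimulation, and read 34.1, 5.92, 15.3 and 87.6 in the same order. The differences between the contrasts were not tested. Over all genes, 8 were higher with and lower without stimulation at the cut-off, and 3 were the other way round.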

How the results depend on the processing

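The count of 166 genes higher in stimulated axons became 14 with the undivided difference, 636 with log2 ratios, 672 with robust z-scores, 311 with the SD over genes, 89 with spots above the array mean only, 300 with spots above 10 on both arrays, 276 with spots naming 1 gene only, 63 at a threshold of 2 and 258 with a floor at the unnamed places. The count of 301 lower genes became 8 with the undivided difference, 146 with robust z-scores, 455 with the SD over genes, 458 with normexp, 111 at a threshold of 2 and 468 with the floor. The other alternatives kept either count within 1.5 times, but not always the same genes: loess gave 116 higher genes, of which 78 were among the 166, and 409 lower genes, of which 292 were among the 301. Of 57 named genes past the cut-off, 44 were past it after loess, 42 with log2 ratios at their cut-off of 1, 33 after quantile normalization and 35 when centred on nearby rows. ZNF706 turned to −0.12 with quantile normalization and −0.02 with loess, and DCN to 0.07 with the floor. The medians of 7 of 35 lists stayed on the same side of the median of all genes under all 15 alternatives, among them transcripts known from sensory axons, cytosolic and mitochondrial ribosomal proteins and tubulins. The robust z-score moved the median of all genes from −0.04 to 0.31. No paired analysis was possible because each condition has 1 array and no replicate number. With 1 array a side, array, membrane and compartment cannot be told apart, and spots near the signal of unnamed places have no exact ratio.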
